A study of Mus musculus with 6 samples.

Results

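Genes that mark epithelium and mesothelium were followed in cultured mouse aortic endothelial cells: the keratins Krt7, Krt8, Krt18, Krt19 and Krt80, the surface protein gene Msln (mesothelin), the annexin gene Anxa8, and the adhesion genes Epcam and Cdh1. The 9 genes were taken by symbol, and they were selected on their difference between angiotensin II (AngII) and saline in these same samples, so the values of that difference are given as a description without a test. The deposited table listed 17067 genes and held 8 of the 9, and the expression of Epcam was not analysed here. Of the 8, Krt7, Krt18, Krt80, Msln and Anxa8 passed a filter on low counts that kept 12277 genes, and Krt8, Krt19 and Cdh1 were below it.

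The series compared messenger RNA of aortic endothelial cells, which line the aorta, from wild-type C57BL/6 mice. At 8 weeks of age the animals received osmotic pumps under the skin that released AngII, the pressor peptide of the renin-angiotensin system, at 1000 ng/kg/min, or saline, for 14 days. Aortic pieces of 2 mm were then plated on matrigel and fed medium that held 20% serum, heparin and endothelial growth factor, and cells began to leave the pieces after 5 to 7 days, so both groups were grown outside the animal before RNA was taken. The labels' protocols give no sorting step. Each group had 3 samples, with 21154724 to 23004780 counts per saline sample and 22646065 to 25141992 per AngII sample, at which 1 count equalled 0.0400 to 0.0471 CPM (counts-per-million).

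Keratins are intermediate filament proteins that assemble as pairs of a type I and a type II chain. Krt18 and Krt19 are type I, Krt7, Krt8 and Krt80 are type II, and Krt8 with Krt18 is the usual pair of simple, single-layered epithelia. Endothelial cells carry mainly vimentin as their intermediate filament. Mesothelin is a surface protein of the mesothelium that covers the serous cavities, annexin A8 is a calcium-dependent membrane-binding protein, Epcam is an epithelial adhesion molecule, and Cdh1 encodes E-cadherin, the cadherin of epithelial junctions.

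Krt7, Anxa8 and Msln transcripts were lower in the AngII samples, 7.84-fold for Krt7, 3.93-fold for Anxa8 and 2.00-fold for Msln. Krt80, by far the most abundant keratin, was 1.11-fold higher. Krt19, below the filter, was 2.92-fold lower as a ratio of pooled counts, but saline replicate 1 and AngII replicate 1 each had 7 counts. Krt18 was 1.45-fold lower, with groups that nearly touched, and Krt8 and Cdh1 were at a few counts in both groups. Of the 8 members in the table, 5 were lower without overlap between the groups, 1 was higher without overlap, and 2 overlapped. Over all tested genes, 31.4% were lower and 31.3% higher without overlap, and nothing is read from the members' count, since the choice of members used it. In bulk RNA, fewer cells of a type and less RNA per cell cannot be told apart.

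The regions around the RefSeq start sites (250 bases before to 50 after) of 3 members that were lower with AngII are shown, because repressors of epithelial genes described below are known to bind the E-box CACCTG. Capitals mark CACCTG on either strand (CAGGTG on the other).
Krt7 promoter, chr15:101412153-101412452, plus strand: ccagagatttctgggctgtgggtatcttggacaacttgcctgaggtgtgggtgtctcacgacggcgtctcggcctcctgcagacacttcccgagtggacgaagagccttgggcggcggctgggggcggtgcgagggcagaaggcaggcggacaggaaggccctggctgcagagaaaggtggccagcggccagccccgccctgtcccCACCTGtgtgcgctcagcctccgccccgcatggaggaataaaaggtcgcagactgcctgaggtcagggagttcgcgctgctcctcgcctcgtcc
Krt18 promoter, chr15:102027966-102028265, plus strand: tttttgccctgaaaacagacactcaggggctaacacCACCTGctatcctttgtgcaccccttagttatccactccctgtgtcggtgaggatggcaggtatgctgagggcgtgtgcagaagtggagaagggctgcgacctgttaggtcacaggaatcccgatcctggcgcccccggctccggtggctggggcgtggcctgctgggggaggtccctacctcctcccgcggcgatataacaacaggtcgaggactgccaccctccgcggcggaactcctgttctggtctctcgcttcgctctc
Anxa8 promoter, chr14:34085729-34086028, plus strand: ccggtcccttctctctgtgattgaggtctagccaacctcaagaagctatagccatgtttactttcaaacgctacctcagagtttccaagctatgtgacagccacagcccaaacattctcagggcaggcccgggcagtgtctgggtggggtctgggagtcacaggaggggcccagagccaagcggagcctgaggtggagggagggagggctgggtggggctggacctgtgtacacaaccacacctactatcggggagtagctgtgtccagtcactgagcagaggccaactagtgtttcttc

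These sequences are from RefSeq on GRCm38.p6, whose promoter table held 5 of the 9 members (Krt7, Krt8, Krt18, Anxa8 and Epcam). CACCTG was present in 4 of those 5, with 1 match each for Krt7, Krt8 and Krt18 and 2 for Epcam, and these letters were not in the window of Anxa8. The same motif was found in 20.2% of all 32851 promoters of the table. The GC box GGGCGG had 4 matches in the Krt7 promoter and 1 in that of Epcam, and 35.7% of all promoters held it. The AP-1 site TGANTCA was in none of the 5 windows and in 7.81% of all promoters. TATAAA was found in the Krt8 window, where 2 matches on opposite strands overlap, and in 13.6% of all. The Krt7 window had a GC content of 66.3% with 21 CpG dinucleotides and that of Anxa8 57.3% with 5, against medians of 52.7% and 7 over the table. The motifs were chosen with the values known, and a match is a description of sequence. Whether any repressor binds or acts at these promoters in these cells was not tested.

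Krt80 (chromosome 15, 101347444 to 101370162, GRCm38), a keratin of differentiating epithelia, had 2718, 2887 and 3040 counts in saline replicates 1 to 3 and 3555, 3323 and 3404 in AngII replicates 1 to 3. Scaled by the trimmed mean of M-values (TMM), these were 130.2 ± 2.03 CPM with saline and 144 ± 7.15 CPM with AngII (mean ± SD, n = 3), a log2 fold change of 0.15 ± 0.0368 (SE). The groups did not overlap, although AngII replicate 3, at 136 CPM, lay closer to the highest saline sample, at 132 CPM, than to the other AngII samples.

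Krt7 (chromosome 15, 101411043 to 101430313), a type II keratin of ducts and of mesothelium, had 71, 54 and 82 counts in the saline samples and 9, 8 and 11 in the AngII samples. The level was 3.12 ± 0.586 CPM with saline and 0.391 ± 0.0438 CPM with AngII (n = 3), or 7.84-fold lower (log2 fold change -2.97, SE 0.246). The lowest saline sample, at 2.45 CPM, was far above the highest AngII sample, at 0.440 CPM. Krt7 lies next to Krt80 on chromosome 15, and these neighbours, both type II keratins, differed in opposite directions.

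Krt18 (chromosome 15, 102028180 to 102032027), the type I partner of Krt8, had 23, 23 and 35 counts with saline and 21, 13 and 26 with AngII. The level was 1.21 ± 0.263 CPM against 0.833 ± 0.235 CPM (n = 3), a log2 fold change of -0.53 ± 0.271 (SE). Saline replicate 2, at 1.043 CPM, and AngII replicate 3, at 1.040 CPM, nearly touched. The log2 fold change was -0.34 without saline replicate 3 and -0.34 without AngII replicate 2.

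Krt19 (chromosome 11, 100140810 to 100148665), a small type I keratin of simple epithelia, had 7, 16 and 15 counts with saline and 7, 2 and 5 with AngII. The pooled ratio of saline to AngII was 2.92 (95% exact interval 1.54 to 5.83, counting error only). Saline replicate 1, at 0.329 CPM, lay beside AngII replicate 1, at 0.294 CPM, and apart from the other saline samples. Krt8 (chromosome 15, 101996698 to 102004482) had 2, 4 and 6 counts with saline and 2, 4 and 4 with AngII, a ratio of 1.29 (0.510 to 3.33). Its groups overlapped, and a difference was not detectable at this depth. A processed pseudogene of Krt8 is annotated on chromosome 7, and no source used here says how reads shared with it were counted, so its values are uncertain.

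Anxa8 (chromosome 14, 34085981 to 34100571) had 320, 336 and 401 counts in the saline samples and 91, 107 and 90 in the AngII samples. The level was 15.9 ± 1.29 CPM with saline and 4.06 ± 0.615 CPM with AngII (n = 3), or 3.93-fold lower (log2 fold change -1.97, SE 0.104). The lowest saline sample, at 15.1 CPM, stood far above the highest AngII sample, at 4.76 CPM. The gene A630023A22Rik, annotated on the opposite strand across the whole of Anxa8, had 15, 14 and 14 counts with saline and 5, 2 and 5 with AngII, a log2 fold change of -1.91 (SE 0.422). The libraries kept strand, but no source used here gives the strand setting of the counting, and if it ignored strand the reads of this pair cannot be told apart. Krt7, Krt8 and Krt80 also overlap genes annotated on the opposite strand, which were not analysed here.

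Msln (chromosome 17, 25748613 to 25754378) had 58, 48 and 58 counts with saline and 29, 29 and 30 with AngII. The level was 2.47 ± 0.278 CPM against 1.24 ± 0.0473 CPM (n = 3), or 2.00-fold lower (SE of the log2 fold change 0.185). The lowest saline sample, at 2.18 CPM, was well above the highest AngII sample, at 1.29 CPM. Cdh1 (chromosome 8, 106603351 to 106670246) had 0, 3 and 0 counts with saline and 0, 0 and 2 with AngII, all at or under 3 counts, which is a level of 0.12 to 0.14 CPM in these libraries, and no fold is given.

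**Figure D1:**
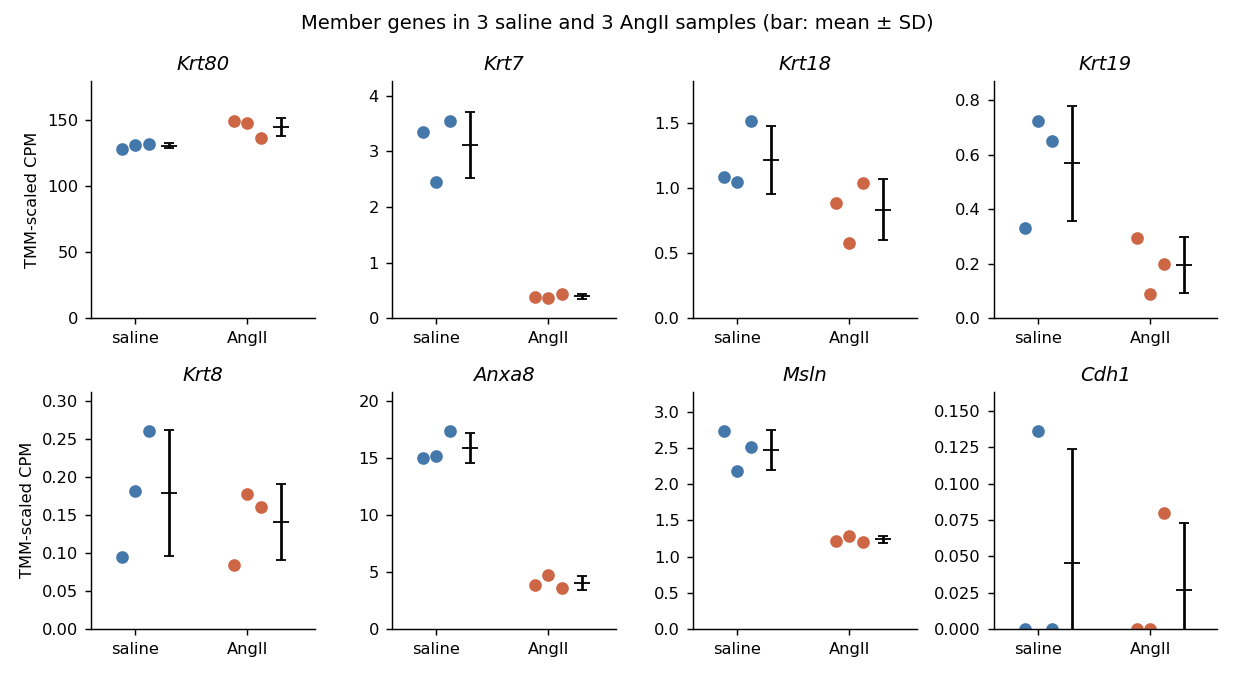
Each panel plots the TMM-scaled CPM (vertical axis, from 0) of 1 member in the 3 saline and 3 AngII samples as points, with the mean ± SD of each group beside them (bars cut off at the panel's limits). Krt7, Anxa8 and Msln separate widely with saline above, Krt80 lies between 128 and 149 CPM with AngII above, and the groups of Krt8 and Cdh1 overlap.

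Divided by exon length, the members covered more than 3 orders of magnitude, a span whose lower end rests on Cdh1, a gene at the floor. In saline samples Krt80 was at 20.4 ± 0.317 CPM per kb and Anxa8 at 8.45 ± 0.687, followed by Krt18 (0.845 ± 0.183), Msln (0.807 ± 0.0909), Krt7 (0.442 ± 0.0832), Krt19 (0.306 ± 0.113), Krt8 (0.0912 ± 0.0424) and Cdh1 (0.00992 ± 0.0172; all n = 3). Of these neighbours, Krt18 and Msln overlapped in range, as did Krt7 and Krt19, and the others were apart. The places of Krt19, Krt8 and Cdh1 are uncertain, since they rest on few counts. Krt19 had 7 in saline replicate 1 and Krt8 had 6 in saline replicate 3. In AngII samples Krt80 (22.6 ± 1.12 CPM per kb), Anxa8 (2.16 ± 0.327), Krt18 (0.580 ± 0.164) and Msln (0.403 ± 0.0155) kept their places, and Krt7 (0.0555 ± 0.00621) was below Krt19 (0.105 ± 0.0553) and Krt8 (0.0718 ± 0.0255). There Krt18 overlapped Msln, Krt19 overlapped Krt8, and Krt8 overlapped Krt7. Krt18 was above its partner Krt8 in every sample. With the longest transcript as the length, Msln (1.14 CPM per kb) stood above Krt18 (0.845) in the saline samples, and Krt7 (0.0956) above Krt8 (0.0718) in the AngII samples, each pair overlapping in range.

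**Figure D2:**
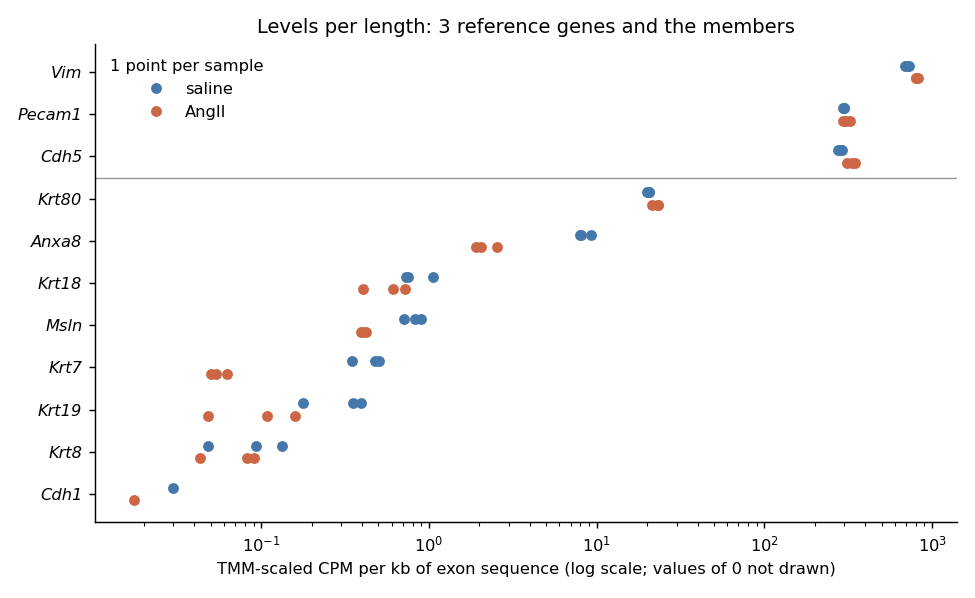
The horizontal axis is TMM-scaled CPM per kb of exon sequence on a log scale, with 1 point per sample, for the intermediate filament gene Vim, the endothelial genes Pecam1 and Cdh5, and the 8 members (samples at 0 are not drawn). Krt80 and Anxa8 stand above the other members, all lie below the 3 reference genes, and the mean of Krt7 is above those of Krt19 and Krt8 with saline and below both with AngII (above Krt8 where length is that of the longest transcript).

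The table held 23 keratin genes, and 17 of them were under 10 counts in every sample. Summed per kb over all 23, Krt80 made up 86.0% to 89.97% of the keratin level in the saline samples and 91.3% to 93.9% in the AngII samples. The keratins other than Krt80 had 136, 138 and 198 counts together in the saline samples and 69, 76 and 96 in the AngII samples. Without Krt7, which was chosen on this difference, the sums were 65, 84 and 116 against 60, 68 and 85 counts, and the groups overlapped. Krt8, Krt18 and Krt19, members chosen in the same way, remained in these sums. The summed keratin level was 22.24, 22.96 and 23.98 CPM per kb in the saline samples and 24.86, 24.84 and 23.34 in the AngII samples, with overlap. It was 3.20% to 3.28% of the level of Vim with saline and 2.91% to 3.10% with AngII. Vim itself was higher with AngII, at a mean of 810 CPM per kb against 712 with saline. Among the 18 keratins that were not members, Krt10, a keratin of the upper epidermis, alone passed the filter, at 1.13 ± 0.116 against 0.958 ± 0.182 CPM (n = 3; edgeR adjusted p = 0.416). Krt16, a keratin of stressed epidermis below the filter and named with its values known, had 3, 1 and 8 counts with saline and 5, 10 and 12 with AngII, a pooled ratio of AngII to saline of 2.10 (95% exact interval 1.03 to 4.54), and its groups overlapped. The basal epidermal keratins Krt5 (0 to 2 counts) and Krt14 (0 to 1 count) were at the floor in every sample. On chromosome 15, between Krt80 and Krt18, the keratins in the table other than Krt7 had at most 6 counts in any sample.

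**Figure D3:**
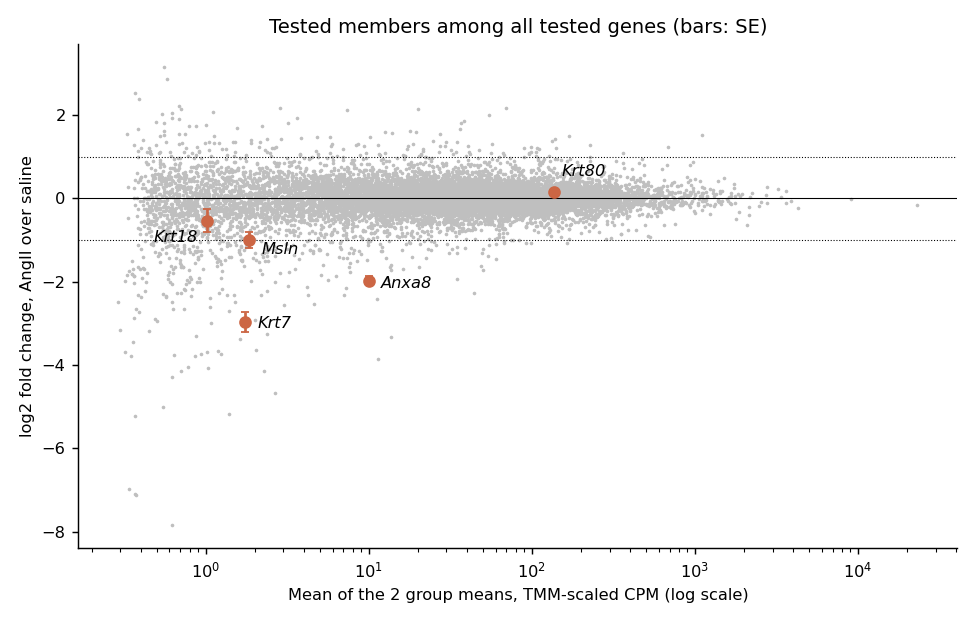
Each grey point is 1 of 12277 tested genes, placed by the mean of its group means in TMM-scaled CPM (horizontal, log scale) and its log2 fold change, AngII over saline (vertical), with dotted lines at a 2-fold difference. The 5 tested members are drawn with their SE: Krt7 and Anxa8 lie well under the lower line, Msln on it, Krt18 between the lines, and Krt80 close to 0 among abundant genes.

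The tissue label was checked against markers of cell types. The 14 endothelial markers in the table, of 15 listed, all passed the filter and together held 7330 to 7390 CPM in the saline samples and 6860 to 7500 CPM in the AngII samples. Of these, 4 rose and 8 fell, none by 2-fold, where 29.0% of all tested genes rose and 28.6% fell. Cdh5, Kdr and Nos3 were higher and Mcam (1.90-fold), Robo4 (1.56-fold) and Emcn (1.24-fold) lower, and Pecam1 was at 1846 ± 19.3 against 1919 ± 93.4 CPM (n = 3). Of 20 mesothelial markers, 14 were in the table and 9 of these were under 10 counts in every sample. The defining ones beside Msln were low in both groups, with 0 to 3 counts of Upk3b, 0 to 1 of Wt1 and 4 to 8 of Lrrn4. The list's sum, which rests mainly on Slc39a8, was 40.2 to 44.6 CPM with saline and 48.8 to 50 CPM with AngII. In edgeR, 2 of 4 tested mesothelial markers rose (Pdpn and Slc39a8) and 1 fell, Upk1b, with 15, 19 and 14 counts in the saline samples and 0, 1 and 0 in the AngII samples. The pooled ratio of saline to AngII for Upk1b, a tetraspanin of urothelium and mesothelium, was 51.6 (95% exact interval 8.82 to 2078). Dmkn, below the filter and named with its values known, had 4, 4 and 2 counts against 0, 0 and 0 (lower limit of the same interval 2.41). In every other gene of this list below the filter the groups overlapped, as for Muc16, with 4, 4 and 3 counts against 10, 4 and 3. The part of any such cells in the members' values was not tested.

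Markers of other cell types were summed in the same way. Beside their few calls, 29.0% of all tested genes rose and 28.6% fell. Smooth muscle markers (9 of 9 in the table, 3 tested, 1 higher and 2 lower) summed to 151 CPM with saline and 157 to 162 CPM with AngII. Nearly all of it was Smtn, at 87.5 CPM with saline and 109 CPM with AngII, and Mylk, at 61.9 and 49.1 CPM. Myh11 had 29, 18 and 16 counts against 6, 4 and 3, and the defining Acta2 had 1 to 5 counts. Fibroblast markers (7 of 9 in the table, all 3 tested higher) summed to 10.8 to 12 CPM with saline and 18.7 to 21.5 CPM with AngII, and Col1a1 had 0 to 3 counts. Leukocyte markers (7 of 9 in the table, 2 tested) summed to 271 to 275 CPM and 264 to 280 CPM, nearly all of it Cd68, with Ptprc at 0 to 3 counts. Their 1 call, Lyz2, was higher with AngII. It was lost in DESeq2 and without saline replicate 1, saline replicate 2 or AngII replicate 2, where 0 leukocyte markers were called. Schwann cell markers (3 of 4 in the table) summed to 0.659 to 0.954 CPM and 1.47 to 2.04 CPM, and 0 of 2 adipocyte markers in the table passed the filter. The part of these cells in the members' values was not tested.

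Junction and epithelial genes other than the members were counted in 6 lists with 133 symbols, of which 95 were in the table and 47 were tested. Of the 47, 23 fell and 11 rose (48.9% and 23.4%), where 28.6% of all tested genes fell and 29.0% rose. Falls of at least 2-fold were found in 9 of the 47 (19.1%), against 2.60% of all tested genes. Of these 9, Evpl, Cdcp1, Llgl2, Grhl2 and Lama3 had low levels, with means of at most 5.05 CPM with saline. They were not tested under a filter of at least 5 CPM in 3 samples. The greatest rise, that of Cxadr, an adhesion receptor of tight junctions chosen here after its values were seen, was 1.62-fold, and rises of at least 2-fold made up 1.33% of all tested genes. The median log2 fold change was -0.19, against 1e-04 over all tested genes. These lists were drawn up with results of these data known, so the counts are a description.

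Desmosomes are the plaques that anchor keratin filaments to the cell surface, and plakins link the filaments to other structures. Of 9 tested genes of this list, of 14 in the table, 3 fell and 3 rose. Each was 33.3% of the 9, close to the 28.6% and 29.0% of all tested genes that fell and rose. Evpl, the plakin envoplakin, had 98, 86 and 104 counts with saline and 11, 9 and 12 with AngII, 4.34 ± 0.384 against 0.447 ± 0.0419 CPM (9.57-fold lower, n = 3; edgeR adjusted p = 1.35e-10). Jup, which encodes plakoglobin, was 2.48-fold lower (44.1 ± 1.08 to 17.8 ± 2.15 CPM) and Pkp2, plakophilin 2, 2.38-fold lower (34.0 ± 1.56 to 14.3 ± 0.755 CPM), with edgeR adjusted p = 1.09e-11 and 6.32e-12. Periplakin, Ppl, was 1.30-fold higher, dystonin, Dst, 1.22-fold and Pkp4 1.15-fold. The defining desmosome gene Dsp, desmoplakin, had 0 to 2 counts in every sample. Without AngII replicate 1, 6 genes of the list fell.

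Among 14 tested adherens junction genes, of 15 in the table, 6 fell and 3 rose. These were 42.9% and 21.4% of the 14, where 28.6% of all tested genes fell and 29.0% rose. The largest fall was that of Nectin4, an adhesion molecule of epithelia, at 11.8 ± 0.521 CPM with saline and 2.35 ± 0.170 CPM with AngII (5.03-fold; edgeR adjusted p = 2.06e-12), and Nectin1 was 1.72-fold and the N-cadherin gene Cdh2 1.27-fold lower. VE-cadherin, Cdh5, the cadherin of endothelium, was 1.16-fold, Cdh11 1.15-fold and Nectin3 1.14-fold higher. The catenins that bind cadherins did not pass, with log2 fold changes of -0.05 for Ctnna1, 0.02 for Ctnnb1 and -0.04 for Ctnnd1.

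In the list of epithelial tight junction and polarity genes, 10 of 19 in the table were tested, 6 fell and 1 rose. These were 60.0% and 10.0% of the 10, where 28.6% of all tested genes fell and 29.0% rose. The polarity gene Llgl2 was 2.55-fold lower (5.05 ± 0.735 to 1.97 ± 0.382 CPM) and Cgn, cingulin, 2.03-fold (17.7 ± 1.10 to 8.73 ± 0.650 CPM), while Tjp1, zonula occludens 1, was 1.18-fold higher (edgeR adjusted p = 8.81e-07, 3.44e-09 and 9.77e-05). The epithelial claudin Cldn4 had 1 to 10 counts, and its groups overlapped.

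Among epithelial surface and secreted proteins, 12 of 21 genes in the table were tested, 7 fell and 4 rose. These were 58.3% and 33.3% of the 12, where 28.6% of all tested genes fell and 29.0% rose. Cdcp1, a transmembrane substrate of Src kinases, had 77, 76 and 97 counts with saline and 8, 10 and 3 with AngII (12.6-fold lower; edgeR adjusted p = 1.37e-09). Prom1, prominin 1, was 1.62-fold lower and the membrane linker ezrin, Ezr, 1.51-fold, while the secreted proteins Lcn2 (1.54-fold) and Slpi (1.32-fold) were higher. Lama3, a laminin chain of epithelial basement membrane that is named with its values known, had 16, 16 and 33 counts against 5, 2 and 10 (4.04-fold lower; edgeR adjusted p = 0.000662).

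Of 11 epithelial transcription and splicing factors in the table, Grhl2, a grainyhead factor that activates epithelial junction genes, alone passed the filter. It was at 3.44 ± 0.636 CPM with saline and 1.47 ± 0.193 CPM with AngII (n = 3), a fall of 2.32-fold with an edgeR adjusted p of 1.44e-05, from 88, 72 and 67 counts in the saline samples and 38, 28 and 39 in the AngII samples. Esrp2, an epithelial splicing regulator below the filter, likewise named with its values known, had 7, 4 and 6 counts against 0, 1 and 0, a pooled ratio of saline to AngII of 18.3 (95% exact interval 2.86 to 763).

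Repressors of epithelial genes, transcription factors and co-repressors known for silencing Cdh1, were 10 in the table, all tested, of which 5 rose and 2 fell, with a median log2 fold change of 0.18. Among all tested genes, 29.0% rose and 28.6% fell. Zeb2, a zinc finger repressor known to bind CACCTG, was at 30.4 ± 1.46 CPM with saline and 54.2 ± 3.17 CPM with AngII (n = 3), a rise of 1.78-fold with an edgeR adjusted p of 1.69e-10. Tcf4, an E protein, was 1.51-fold and Zeb1, the relative of Zeb2, 1.30-fold higher, with edgeR adjusted p = 5.38e-10 and 5.01e-08. Snai2, a zinc finger repressor named with its values known, was 1.37-fold higher (20.1 ± 0.281 to 27.6 ± 1.72 CPM; edgeR adjusted p = 3.13e-06), and its relative Snai1, named in the same way, did not pass (log2 fold change 0.16, edgeR adjusted p = 0.337). The 2 that fell, the co-repressors Ctbp1 and Ctbp2, had log2 fold changes of -0.10 and -0.09, and only 1 fell in DESeq2, with no count filter, or without saline replicate 1 or any 1 of the AngII samples, and 0 without saline replicate 3. Cdh1 itself was at the floor in both groups, as given above.

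**Figure D4:**
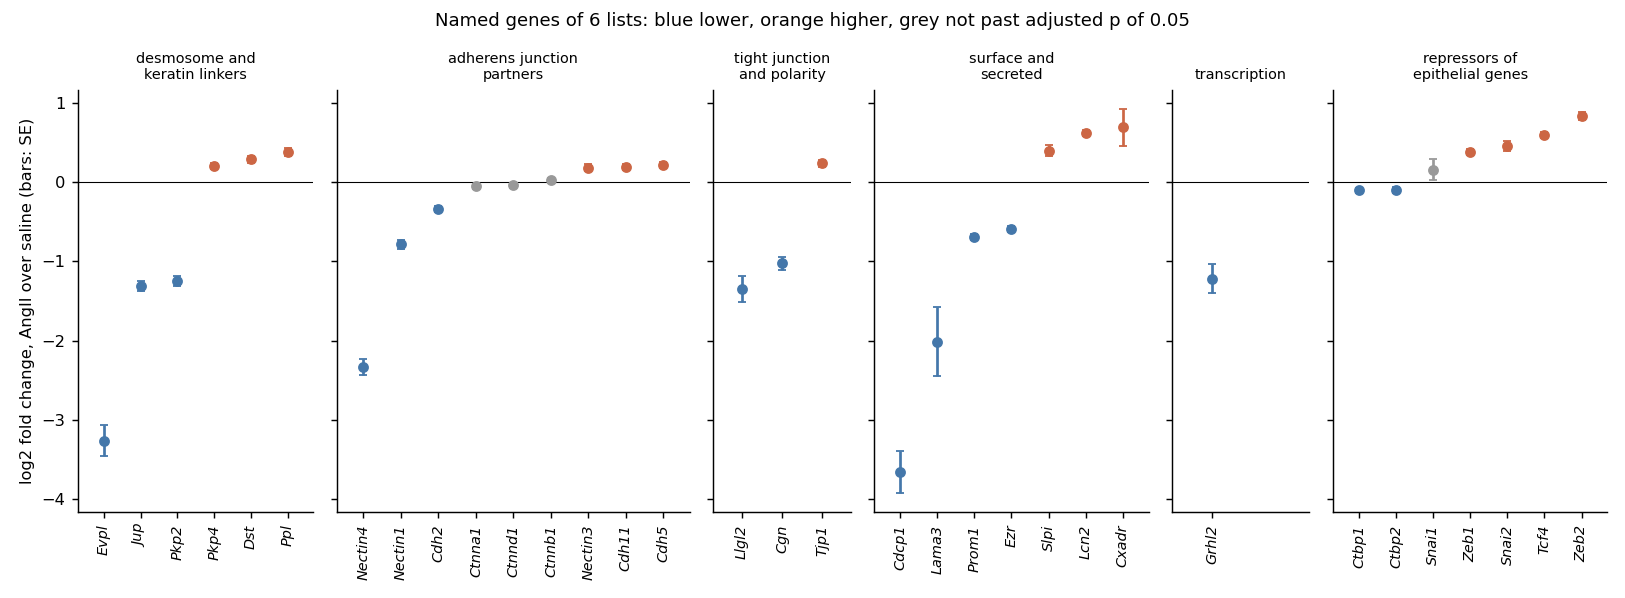
Points are the log2 fold changes, AngII over saline, of the genes named above from 6 lists (not all tested genes of each), with SE bars, blue where the gene fell, orange where it rose and grey where the edgeR adjusted p was not below 0.05. Evpl, Jup, Pkp2, Nectin4, Llgl2, Cgn, Cdcp1, Lama3 and Grhl2 lie below -1, and in the list of repressors Zeb2, Tcf4, Snai2 and Zeb1 stand highest.

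Of the other intermediate filament genes, 9 of 13 in the table were tested, and 3 rose and 3 fell (33.3% each, against 29.0% and 28.6% of all tested genes). Vim, the main one, was 1.14-fold higher (3376 ± 104 to 3843 ± 68.8 CPM, n = 3; edgeR adjusted p = 0.000118), and the neurofilament gene Nefl was 1.41-fold higher. Synm, which encodes synemin, was 2.25-fold lower (edgeR adjusted p = 9.64e-13), and desmin, Des, the filament of muscle, had 33, 41 and 31 counts with saline and 4, 2 and 5 with AngII (9.95-fold lower; edgeR adjusted p = 1.96e-07).

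Among the relatives of Anxa8 and their S100 partners, 12 of 13 genes in the table were tested, 8 fell and 3 rose, none by as much as 2-fold. These were 66.7% and 25.0% of the 12, where 28.6% of all tested genes fell and 29.0% rose. Anxa2, the most abundant annexin, was 1.18-fold lower (640 ± 13.9 to 544 ± 3.77 CPM), Anxa3 was 1.27-fold and S100a6 1.82-fold lower, and Anxa11 was 1.29-fold and Anxa6 1.41-fold higher (edgeR adjusted p = 2.67e-06, 2.43e-08, 1.29e-12, 1.64e-07 and 0.00257). Anxa8 was thus lower by a greater factor than any other tested annexin, a comparison that the choice of Anxa8 fixes and that has no test.

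The genes most like each abundant member were sought among 10081 other tested genes with at least 5 CPM on average, by the root mean square distance of log2(CPM + 0.5), with the saline mean subtracted, over the 6 samples. Nearest to Anxa8 were the Notch receptor gene Notch3 (distance 0.111; 8.97 ± 0.226 to 2.29 ± 0.144 CPM), the small heat shock protein gene Cryab (0.113; 54.9 ± 1.48 to 14.4 ± 0.380 CPM) and the RNA-binding protein gene Celf5 (0.147; 11.8 ± 0.613 to 2.67 ± 0.590 CPM). Nearest to Krt80 were Sh2d3c (0.0139), Bnip3l (0.0159) and Dhx37 (0.0199), each with a log2 fold change between 0.14 and 0.15. Krt7, Krt18 and Msln were below 5 CPM and were not given neighbours. The mean profile of Krt80 and Anxa8 joined 2 opposite directions, and the genes near it included Pde6h, Tent5b, Fam89b and Nradd, at distances of 0.0696 to 0.0751.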

How the data were processed

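RNA sequencing of 6 samples, 3 saline and 3 AngII, was analysed from 1 table. The authors deposited estimated counts per gene symbol, not scaled to library size, of which 83.0% were whole numbers. Per the submitters' processing notes, HISAT2 and the mouse build mm10 were used. The quantifier, annotation, strand setting and filters are not given in the sources used here. Per the labels' protocols, libraries were made from purified messenger RNA by the dUTP method. Each column matched 1 sample title, 0 were unmapped and 0 entries lacked a name.

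Counts were rounded and fitted across all genes in edgeR 4.0.16 (R 4.3.3) with TMM scaling, filterByExpr (minimum count 10, minimum total 15) and the quasi-likelihood F-test. Adjusted p-values are Benjamini-Hochberg values over 12277 genes, and the threshold was 0.05. The standard error is the log2 fold change over the square root of F. The fit was tested on simulated data. The labels do not name separate animals or cultures, so p-values measure only the spread among these samples, possibly technical. Replicate pairs of each group were further apart than sampling noise (chi-square per degree of freedom 2.37 to 5.80).

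Coordinates and lengths came from GENCODE M21 (GRCm38, the assembly of mm10), which held 15997 of the 17067 symbols. Levels between genes are per kb of merged exons. Low counts were pooled per group and their ratio given with an exact conditional binomial interval. Intervals and floors cover counting error only.

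The members and the 16 lists (245 symbols) were chosen with earlier results of these data known. Named were all members, up to 3 risers and 3 fallers per list by p-value, defining markers, and nearest profiles. For others, the text says that their values were known. Some genes that the rule selects are not reported here. Alternatives were DESeq2's size factors in edgeR, unscaled library totals, a filter of only 1 count or of 5 CPM in 3 samples, DESeq2 1.42.0, limma-voom (limma 3.58.1), the replicate number as a block, leaving out each sample, and the longest transcript as length.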

Additional observations from a re-analysis of the deposited data

How the results depend on the processing

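Krt7, Krt18, Krt80, Msln and Anxa8 kept their direction in all 62 combinations of member and alternative that could be fitted. Leaving out 1 sample gave log2 fold changes of -3.12 to -2.86 for Krt7, -2.10 to -1.90 for Anxa8, -1.08 to -0.93 for Msln, -0.73 to -0.34 for Krt18 and 0.12 to 0.19 for Krt80. With at least 5 CPM in 3 samples, only Krt80 and Anxa8 were tested among the members. The ratio of saline to AngII for Krt8 ranged from 0.988, without saline replicate 3, to 1.58, without saline replicate 1, and that of Krt19 ranged from 2.33 to 3.88 when 1 sample was left out. Same-numbered samples of the groups did not deviate together (correlations 0.0833, 0.0523 and 0.00764), so the numbers were not taken as pairs. With the replicate block, 3627 genes were higher and 3577 lower, and 33 and 48 of the list genes, close to 33 and 47 without it. Of all tested genes, 3159 to 3487 were higher and 3175 to 3520 lower without any 1 sample, and DESeq2 called 3014 and 3010. With at least 5 CPM in 3 samples, 3 of the epithelial surface genes fell in place of 7, and Cdcp1, Evpl, Llgl2, Grhl2, Upk1b, Des, Myh11, Anxa6, Lyz2 and Pdgfra were among the named genes that were no longer tested. None of the other named genes changed direction in any alternative, and the calls lost, in 21 of 717 combinations, were those of Anxa5, Ctbp1, Ctbp2, Lmna, Lyz2 and Nes. The cause was not tested. Depth limits Krt8, Krt19 and Cdh1, at 16 counts or fewer per sample.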
